A study of Mus musculus with 10 samples.

Results

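Transcripts of 9 MAP kinase genes were followed in splenic CD8+ T cells of Dusp2 conditional knockout and control mice. MAP kinases are the enzyme family that the phosphatase DUSP2 acts on. The genes were chosen by name: Mapk3, Mapk6, Mapk7, Mapk8, Mapk9, Mapk11, Mapk12, Mapk13 and Mapk14, which are 9 of the 57010 genes in the deposited table. Of the 9, 8 had enough counts to be tested and Mapk13 did not. All cells came from mice with floxed Dusp2 on both copies. The 3 conditional knockout mice (cKO, Dusp2fl/fl-E8I-cre+/-) also carried one copy of the E8I-cre transgene, which is driven by a Cd8a enhancer, and the 2 control mice (Dusp2fl/fl-E8I-cre-/-) did not. Each mouse gave 1 library of rested cells and 1 of activated cells. Activation meant 24 h in culture on beads that carry anti-CD3 and anti-CD28 antibodies, which trigger the antigen receptor and the co-receptor CD28, and rested cells were cultured without them. Control mouse 1 and cKO mice 1 and 2 were male, and control mouse 2 and cKO mouse 3 were female. Because cre was present in the cKO mice alone, its own effect and that of the Dusp2 knockout cannot be told apart. The mice's ages were not given in the sources used here.

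MAP kinases are the last step of a relay in which a MAP kinase kinase kinase activates a MAP kinase kinase, which phosphorylates the MAP kinase on its activation loop. In most of the family this puts a phosphate on a threonine and on a tyrosine that lie a single residue apart. Dual-specificity phosphatases such as DUSP2 remove both and so switch the kinase off. In T cells the ERK, JNK and p38 branches of this relay carry signals from the antigen receptor and from co-stimulation to transcription factors in the nucleus. None of the values below measures phosphorylation: they are levels of messenger RNA.

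The stretch that MAP kinase phosphatases act on tells the branches apart, and is shown here as coding sequence from the GENCODE M21 mouse transcripts, found for all 9 genes. Each stretch begins at the aspartate-phenylalanine-glycine codons that open the activation loop. Capitals mark the 3 codons of the phosphorylation motif.

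Mapk3: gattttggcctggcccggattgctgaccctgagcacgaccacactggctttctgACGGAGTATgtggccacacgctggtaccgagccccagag
Mapk6: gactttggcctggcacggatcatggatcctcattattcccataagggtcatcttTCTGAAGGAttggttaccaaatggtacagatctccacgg
Mapk8: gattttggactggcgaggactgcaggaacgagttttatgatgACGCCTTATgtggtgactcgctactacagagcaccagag
Mapk9: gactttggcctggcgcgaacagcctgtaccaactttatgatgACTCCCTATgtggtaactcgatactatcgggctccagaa
Mapk11: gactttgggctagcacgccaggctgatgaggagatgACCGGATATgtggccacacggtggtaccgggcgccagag
Mapk14: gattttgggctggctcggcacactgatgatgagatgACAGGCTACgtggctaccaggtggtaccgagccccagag

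The capitals read threonine, glutamate, tyrosine in Mapk3 and also in Mapk7. They read threonine, proline, tyrosine in the JNK genes Mapk8 and Mapk9, and threonine, glycine, tyrosine in the p38 genes Mapk11, Mapk12, Mapk13 and Mapk14. Mapk6 had serine, glutamate, glycine at this place, so it lacks the tyrosine. Between the opening codons and the motif there were 15 codons in Mapk3 and Mapk6, 16 in Mapk7, 11 in the JNK genes and 9 in the p38 genes. Over the printed 81 bases Mapk8 and Mapk9 were 75.3% identical, and over 75 bases Mapk11 and Mapk14 were 80.0% identical.

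The 10 libraries held 51203786 to 65135435 counts, so that 3 counts, the floor used here, correspond to between 0.0461 and 0.0586 CPM (the gene's count scaled to a common library total). Dusp2, the targeted gene, stood at 85.6 and 95.3 CPM in the rested control libraries and at 24.2 to 27.7 CPM in the rested cKO libraries. After activation it stood at 299.9 and 303.8 CPM in control and at 47.7 to 57.6 CPM in cKO, so that the genotypes did not overlap. Dusp2 transcript thus remained in cKO cells, in the fit at 0.284 of the control level at rest and 0.177 after activation. Whether the remaining transcript makes protein was not tested. For cKO mouse 3 the title of each library contradicts the remaining labels, and the genotype and treatment labels and the library names were followed. With the states so assigned, Il2ra held 0.920 to 2.41 CPM in all rested and 365 to 473 CPM in all activated libraries. Il7r held 1407 to 1597 and 303.5 to 505 CPM. Dusp2 in cKO mouse 3, at 27.7 CPM rested and 53.6 CPM activated, lay below both control libraries of the same state. Without this mouse the 6 activation calls in cKO cells described below were kept, Mapk12 was added to them, and still no genotype comparison called any of the 8 genes. The 8 CD8 T cell markers chosen for the check (among them Cd3e, Cd8a and Cd8b1) summed to 3679 to 3989 CPM in rested and 2934 to 3162 CPM in activated libraries. The erythroid and platelet list was at 0 for 3 to 6 of its 6 genes in every library. Summed B cell markers reached 235 to 359 CPM, of which Ighm alone gave 229 to 349 CPM, while Cd79b reached 2.27 to 5.35 CPM, Ighd 2.46 to 4.44 CPM and Cd79a 0.309 to 0.814 CPM, and Ms4a1 and Pax5 stayed at or below 0.102 CPM. In bulk samples fewer cells of a type and less RNA per cell cannot be told apart, and all levels are relative to the library's total.

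Activation changed most of the tested members. Of the 8 tested genes 3 rose and 3 fell in control cells, and the same 6 genes moved the same way in cKO cells (edgeR's quasi-likelihood test, adjusted p below 0.05 over 18966 genes). Among all genes tested, 56.1% were called in control cells (28.5% higher and 27.6% lower) and 63.4% in cKO cells (31.5% higher and 31.9% lower), so a called share of this size is common in these libraries. For each of the 6 genes, which had been called in these same libraries, all 5 activated libraries lay on one side of all 5 rested libraries. The share of all genes that separate in this way was not counted, so the separation is given as a description. Both comparisons were read from a single fit with a sex term. Marker lists moved with activation too: of the 8 CD8 T cell markers 7 fell and 1 rose in each genotype. The 4 CD4 T cell markers summed to 3.42 to 9.80 CPM in rested and 14.95 to 35.8 CPM in activated libraries, of which Zbtb7b gave 2.10 to 7.83 and 11.96 to 32.6 CPM. Of these 4 markers, 2 rose and 2 were not called in each genotype. Cd4 itself held 0.156 to 1.197 CPM in rested and 0.230 to 0.797 CPM in activated libraries. Foxp3 held 0.451 to 0.871 CPM in rested and 0.394 to 0.757 CPM in activated libraries, so both genes overlapped between the states. The part of the CD8 and CD4 T cell markers in the activation results was not tested.

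**Figure D1:**
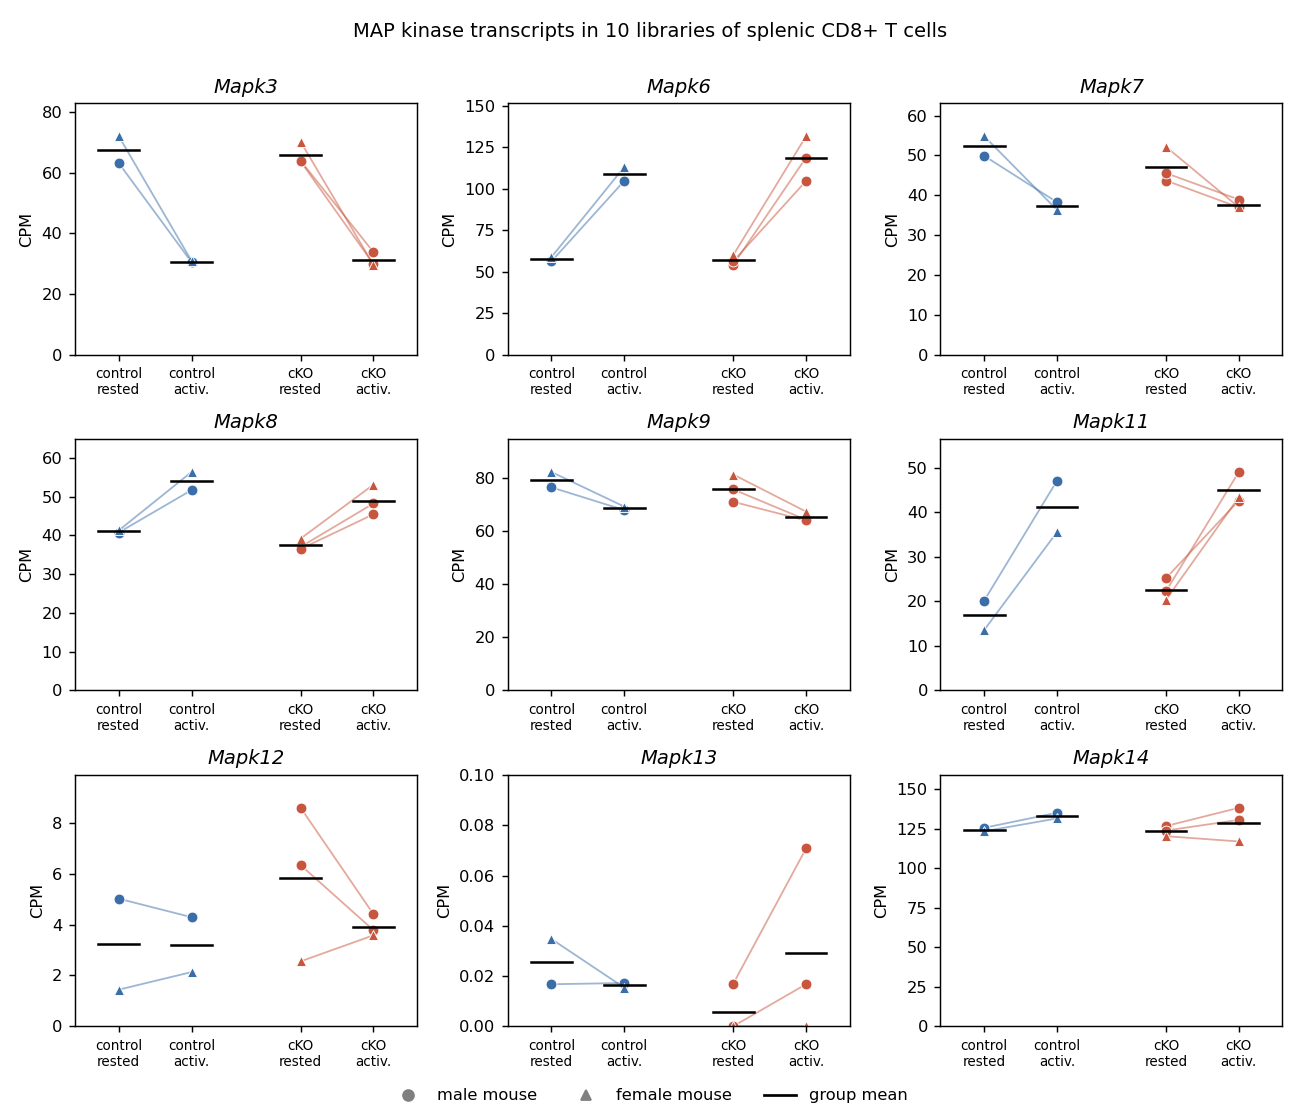
Level in CPM (vertical axes from 0) of the 9 MAP kinase genes in each library, by genotype and state, with lines joining the rested and activated cells of a mouse and bars at the group means. Mapk3 falls from between 63.1 and 72.0 to between 29.6 and 33.8 CPM in all 5 mice, while Mapk6 and Mapk11 rise in all 5 mice. Mapk13 stays at 0 to 4 counts.

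Mapk3 (ENSMUSG00000063065; chromosome 7, 126358773 to 126364991 in mm39, as all coordinates of genes below) encodes ERK1, a classical ERK that phosphorylates nuclear targets such as ELK1. Rested control libraries held 63.1 and 72.0 CPM, and rested cKO libraries 63.7, 63.9 and 70.2 CPM. Activated control libraries held 30.5 and 30.9 CPM, and activated cKO libraries 29.9, 33.8 and 29.6 CPM. Every activated library thus lay below every rested one, and within a state the genotypes overlapped. On activation the log2 fold change was -1.20 (SE 0.08, adjusted p = 7.57e-08), 2.30-fold lower, in control cells and -1.15 (SE 0.07, adjusted p = 8.4e-09), 2.22-fold lower, in cKO cells. This was the strongest fall among the tested members. The SE here and below was computed back from the test, as the size of the log2 fold change over the square root of F.

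Mapk7 (ENSMUSG00000001034; chromosome 11, 61379638 to 61385232) encodes ERK5, a large kinase with its own transcription-activating tail that acts on MEF2 factors. It too was lower after activation, and by less than Mapk3. Rested libraries held 49.9 and 54.8 CPM in control and 43.7, 45.5 and 52.2 CPM in cKO. Activated libraries held 38.3 and 36.3 CPM in control and 37.0, 38.9 and 37.0 CPM in cKO. The rested cells spread over 43.7 to 54.8 CPM, the activated ones only over 36.3 to 38.9 CPM, and the states did not overlap. Its log2 fold change was -0.55 (SE 0.08, adjusted p = 4.96e-05) in control and -0.39 (SE 0.07, adjusted p = 0.000145) in cKO cells.

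Mapk6 (ENSMUSG00000042688; chromosome 9, 75276344 to 75317287) encodes ERK3, an atypical MAP kinase that partners the kinase MAPKAPK5. Rested libraries held 56.2 and 58.8 CPM in control and 54.3, 56.4 and 60.1 CPM in cKO. After activation control libraries held 104.8 and 113.2 CPM, and cKO libraries 118.9, 104.8 and 131.8 CPM. Each mouse rose by between 1.86-fold and 2.19-fold in CPM, the largest rise being in cKO mouse 1 and cKO mouse 3. In the fit the log2 fold change was 0.85 (SE 0.07, adjusted p = 5.26e-07) in control and 0.99 (SE 0.06, adjusted p = 1.14e-08) in cKO cells. The difference between these changes, tested as an interaction, was 0.14 (95% interval -0.07 to 0.34, adjusted p = 1.0). Of the activated cells, those of cKO mice 1 and 3 lay above both control mice and those of cKO mouse 2 lay within the control range.

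The JNK genes moved in opposite directions. Mapk8 (ENSMUSG00000021936; chromosome 14, 33099855 to 33169115), which encodes JNK1, held 40.7 and 41.3 CPM in rested control libraries and 37.0, 36.5 and 39.2 CPM in rested cKO libraries. It rose to 51.7 and 56.3 CPM in activated control libraries and to 48.2, 45.4 and 53.1 CPM in activated cKO libraries. Mapk9 (ENSMUSG00000020366; chromosome 11, 49737578 to 49777248), which encodes JNK2, held 76.6 and 82.4 CPM in rested control libraries and 71.2, 75.8 and 81.5 CPM in rested cKO libraries. It fell to 68.1 and 69.4 CPM in activated control libraries and to 64.1, 64.4 and 67.5 CPM in activated cKO libraries. For both genes the states were separate in all mice, although the steps were small.

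For Mapk8 the log2 fold change was 0.33 (SE 0.07, adjusted p = 0.00112) in control and 0.31 (SE 0.06, adjusted p = 0.000266) in cKO cells. For Mapk9 it was -0.28 (SE 0.06, adjusted p = 0.00148) in control and -0.29 (SE 0.05, adjusted p = 0.000181) in cKO cells. Without control mouse 2, when control mouse 1 alone stands for its group and the spread is taken from the remaining groups, the calls in control cells ended for Mapk8 (adjusted p = 0.0714) and Mapk9 (adjusted p = 0.0847). JNK kinases phosphorylate JUN and are reached through MKK4 and MKK7, the products of Map2k4 and Map2k7.

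Among the p38 genes only Mapk11 was called on activation. Mapk11 (ENSMUSG00000053137; chromosome 15, 89026689 to 89033831), which encodes p38 beta, held 20.1 and 13.5 CPM in rested control libraries and 25.2, 22.3 and 20.3 CPM in rested cKO libraries. It rose to 47.0 and 35.5 CPM in activated control libraries and to 42.6, 49.0 and 43.3 CPM in activated cKO libraries. Control mouse 2 was the lowest mouse in both states. Its log2 fold change was 1.23 (SE 0.12, adjusted p = 1.96e-06), 2.35-fold, in control and 0.93 (SE 0.10, adjusted p = 2.06e-06), 1.91-fold, in cKO cells. Among the tested members it was the strongest rise in control cells, and Mapk6 had the strongest rise in cKO cells.

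Mapk14 (ENSMUSG00000053436; chromosome 17, 28910303 to 28967380) encodes p38 alpha, the p38 kinase best known in immune cells. It had the highest CPM of the 9 chosen genes in every library but one. Rested libraries held 125.5 and 123.3 CPM in control and 126.6, 123.8 and 120.2 CPM in cKO. Activated libraries held 135.0 and 131.4 CPM in control and 138.1, 130.5 and 116.9 CPM in cKO. The states overlapped, and cKO mouse 3 held the lowest value of all in activated cells. The log2 fold change was 0.03 (SE 0.06, adjusted p = 0.702) in control and -0.01 (SE 0.05, adjusted p = 0.877) in cKO cells, and its sign in cKO cells depended on the scaling (0.01 with DESeq2 size factors).

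Mapk12 (ENSMUSG00000022610; chromosome 15, 89014787 to 89024906) encodes p38 gamma, known best from skeletal muscle. Rested libraries held 5.03 and 1.44 CPM in control and 8.61, 6.35 and 2.56 CPM in cKO. Activated libraries held 4.30 and 2.13 CPM in control and 4.42, 3.79 and 3.58 CPM in cKO. It was lower after activation in the 3 male mice and higher in the 2 female mice. The log2 fold change was 0.02 (SE 0.37, adjusted p = 0.97) in control and -0.48 (SE 0.29, adjusted p = 0.183) in cKO cells. Without cKO mouse 3 it passed as lower in cKO cells (-0.94, adjusted p = 0.00341).

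Mapk13 (ENSMUSG00000004864; chromosome 17, 28988271 to 28999207) encodes p38 delta. It had 0 to 4 counts per library, at most 0.0708 CPM, which is at or near the floor in every library, and it was not tested. Of the other MAP kinase genes, Mapk4 had at most 4 counts, Mapk10 at most 1 and Mapk15 at most 19 in a library, and the rest were not analysed here.

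**Figure D2:**
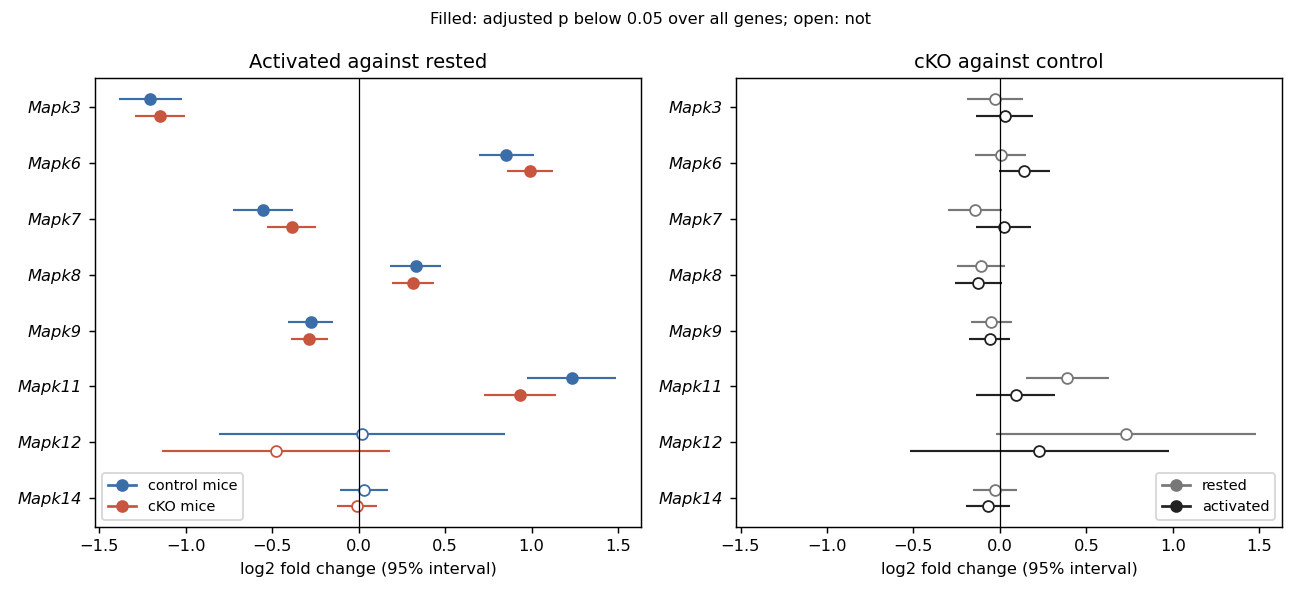
Log2 fold changes of the 8 tested MAP kinase genes (horizontal axes) with 95% intervals from edgeR's quasi-likelihood fit, for activation in each genotype (left) and for cKO against control in each state (right), filled where the adjusted p over all genes is below 0.05. On the left 6 genes are called in both genotypes, with Mapk3 lowest and Mapk11 or Mapk6 highest, and on the right every point is open.

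Levels of different genes were compared per length, on the deposited FPKM scale, as means over the 5 mice of a state. In rested cells Mapk3 (29.5 ± 1.9 FPKM, SD, n = 5) and Mapk14 (28.3 ± 0.6 FPKM) led, and their ranges overlapped. Mapk9 (11.4 ± 0.7 FPKM) and Mapk7 (11.2 ± 1.1 FPKM) followed, also with overlapping ranges, and then Mapk6 (8.56 ± 0.34 FPKM) and Mapk11 (7.02 ± 1.48 FPKM), which overlapped as well. Mapk8 (3.40 ± 0.19 FPKM) and Mapk12 (1.26 ± 0.76 FPKM) came last among the tested genes and were separate from each other.

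In activated cells the order changed. Mapk14 (29.8 ± 1.9 FPKM) was first in all 5 mice and was separate from Mapk6 (17.2 ± 1.7 FPKM), which was now second. Mapk11 (15.1 ± 1.8 FPKM) overlapped with Mapk6 above it and with Mapk3 (13.7 ± 0.7 FPKM) below it. Below these, Mapk9 (9.83 ± 0.34 FPKM), Mapk7 (8.53 ± 0.24 FPKM), Mapk8 (4.45 ± 0.37 FPKM) and Mapk12 (0.958 ± 0.240 FPKM) did not overlap with their neighbours.

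**Figure D3:**
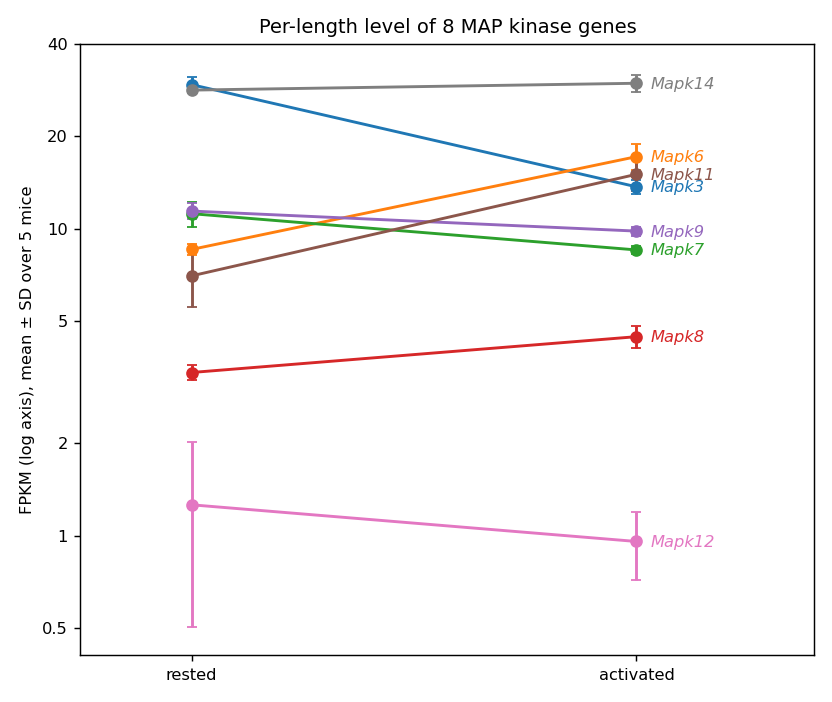
Per-length level of the 8 MAP kinase genes above the floor in rested and activated cells (FPKM, log axis, mean ± SD over 5 mice of both genotypes). Mapk3 drops from beside Mapk14 in rested cells to below Mapk6 and Mapk11 in activated cells, while Mapk14 stays near 29 FPKM.

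Within the p38 genes the balance differed between the states. Mapk14 made up 72.5% to 84.7% of the summed FPKM of the 4 p38 genes in rested cells and 62.4% to 70.0% in activated cells, and it was lower after activation in 5 of 5 mice. The mean difference was -12.5 percentage points (SD 3.8, n = 5). An exact two-sided sign-flip test over the 5 mice gave p = 0.0625, the smallest it can give, and 0.1875 after Benjamini-Hochberg adjustment over 6 tests, so this design could not reach 0.05. The share was highest in control mouse 2 in both states, at 84.7% and 70.0%.

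Within the JNK genes Mapk8 made up 22.2% to 24.0% of the summed FPKM in rested cells and 29.5% to 32.5% in activated cells. It was higher after activation in 5 of 5 mice, by 8.18 percentage points on average (SD 1.32, n = 5; exact two-sided sign-flip p = 0.0625, adjusted p = 0.1875). Mapk9 transcripts stayed the more abundant of the JNK genes per length in every library.

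**Figure D4:**
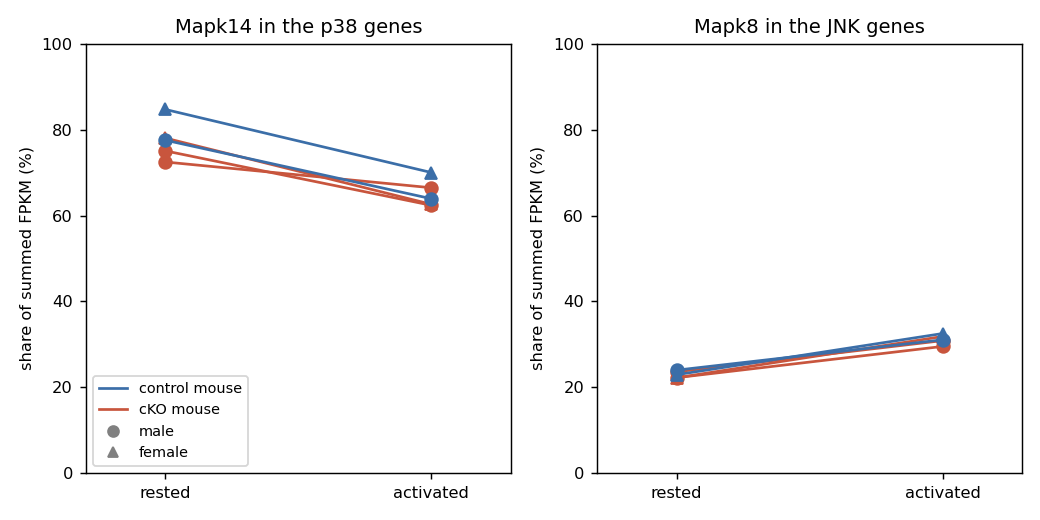
Share of Mapk14 in the summed FPKM of the p38 genes (left) and of Mapk8 in that of the JNK genes (right), in percent, with a line per mouse joining its rested and activated cells. The Mapk14 share falls in all 5 mice, to between 62.4% and 70.0%, and the Mapk8 share rises in all 5, to between 29.5% and 32.5%.

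The conditional knockout, in which Dusp2 transcript was lowered but not absent, came with no called change in the 8 tested genes. This held at rest and after activation. Over all genes 0.0422% were called at rest and 0.0422% after activation, so calls were rare everywhere. At an unadjusted p below 0.05 the call rate over all genes was 4.13% at rest and 6.02% after activation, and 1 of the 8, Mapk11 at rest, passed that mark. The share of Mapk14 among the p38 genes was 75.2% in cKO against 81.2% in control at rest (exact two-sided permutation p = 0.3 over 5 mice) and 63.8% against 67.0% after activation (exact p = 0.4). Without control mouse 2 the difference in the Mapk14 share went from -5.94 to -2.35 points at rest and from -3.15 to -0.10 points after activation, and without control mouse 1 to -9.53 and -6.20 points. The share of Mapk8 among the JNK genes was 22.7% against 23.4% at rest (exact p = 0.3) and 30.7% against 31.8% after activation (exact p = 0.4). Leaving out 1 mouse at a time moved this difference over -1.31 to -0.24 points at rest and -1.79 to -0.33 points after activation.

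For the ERK-type genes the intervals of the genotype difference were narrow. The log2 fold change of Mapk3 was -0.03 at rest (95% interval -0.19 to 0.13) and 0.03 after activation (-0.14 to 0.19). For Mapk6 it was 0.01 at rest (-0.14 to 0.15) and 0.14 after activation (-0.00 to 0.29, adjusted p = 0.825). For Mapk7 it was -0.14 at rest (-0.30 to 0.01) and 0.02 after activation (-0.14 to 0.18).

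The JNK genes had intervals of similar width. Mapk8 lay lower in all 3 rested cKO libraries than in both rested control libraries, with a log2 fold change of -0.11 (95% interval -0.25 to 0.03, adjusted p = 1.0), and -0.13 after activation (-0.26 to 0.01), when the libraries overlapped. Mapk9 had -0.05 at rest (-0.17 to 0.07) and -0.06 after activation (-0.18 to 0.06), and its activated cKO libraries all lay below the activated control libraries. For Mapk14 the values were -0.03 (-0.16 to 0.10) and -0.07 (-0.20 to 0.06). Among the 8 tested genes the genotypes separated for Mapk8 and Mapk11 at rest and for Mapk9 after activation. The share of all genes whose genotypes separate in this way was not counted, so these separations are given as a description.

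Mapk11 differed most among the genotype comparisons in relation to its error. At rest all 3 cKO libraries (20.3 to 25.2 CPM) lay above both control libraries (13.5 and 20.1 CPM), though cKO mouse 3 exceeded control mouse 1 only slightly. This separation too is only a description. The log2 fold change was 0.39 (SE 0.11, 95% interval 0.15 to 0.63), with an unadjusted p of 0.00404 and an adjusted p of 1.0. It was 0.20 without control mouse 2 and 0.62 without control mouse 1. Within the male mice the rested values were 20.1 CPM in control and 25.2 and 22.3 CPM in cKO, and within the females 13.5 and 20.3 CPM. After activation the genotypes overlapped and the log2 fold change was 0.09 (-0.14 to 0.32). Mapk12 had a log2 fold change of 0.73 at rest (-0.02 to 1.48) and 0.23 after activation (-0.52 to 0.98), and its intervals were the widest of the 8 genes. Its value at rest was 0.37 without control mouse 2 and 1.34 without control mouse 1. Sums of markers of other cells did not overlap between genotypes for NK cells in both states and for dendritic cells at rest. The CD4 T cell, B cell, myeloid and neutrophil sums overlapped in both states. Of the tested genes, 0 of 4 NK cell genes and 0 of 1 dendritic cell gene were called. The 5 NK cell markers summed to 3.57 to 5.72 CPM in rested cKO and 1.77 to 2.59 CPM in rested control libraries, and to 3.02 to 3.65 against 1.26 to 1.599 CPM after activation. The 4 dendritic cell markers summed to 0.363 to 0.918 CPM in rested cKO and 0.208 to 0.301 CPM in rested control libraries. After activation these sums overlapped, at 1.54 to 2.66 CPM in cKO and 0.98 to 1.69 CPM in control libraries. The part of the NK and dendritic cell markers in the Mapk11 and Mapk12 values was not tested. When no low-count filter was used, Mapk11 (adjusted p = 0.00517) and Mapk12 (adjusted p = 0.0177) passed as higher in rested cKO cells, and 204 genes were then called in all, against 8 with the filter.

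The interaction asks whether the response to activation differed between the genotypes. By edgeR's quasi-likelihood test 0 of the 8 genes and 0% of all genes were called, while 519 of 18966 genes had an unadjusted p below 0.05 (2.74%). DESeq2's Wald test called 3 of all genes and none of the 8. The largest interaction estimates among the 8 were -0.50 for Mapk12 (95% interval -1.55 to 0.55) and -0.30 for Mapk11 (-0.63 to 0.03). The comparisons of genotype and of activation use the same libraries and are not independent of each other.

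Several members separated by sex. In rested cells 4 members (Mapk3, Mapk6, Mapk7 and Mapk9) lay higher in both females than in all males, and 2 (Mapk12 and Mapk14) lay lower. In activated cells Mapk8 lay higher and Mapk12 lower. The share of all genes that separate by sex was not counted, so these separations are given as a description. Mapk12 had the widest spread between mice relative to its mean among the tested members. In rested cells it held 5.03 to 8.61 CPM in the 3 male mice and 1.44 and 2.56 CPM in the 2 females. In activated cells the males held 3.79 to 4.42 CPM and the females 2.13 and 3.58 CPM. Read from the sex term of the fit, a comparison added after the values were seen, the log2 fold change of females against males was -1.06 (SE 0.24, adjusted p = 0.0443). Each mouse gave this term a rested and an activated library, which the fit treated as independent. The SE and adjusted p for sex, here and below, thus do not measure the spread between mice and can be too small. Over all genes 4.07% were called for sex, 2.83% as lower in females. The call ended without control mouse 1 (adjusted p = 0.279), without control mouse 2 (0.307) and without cKO mouse 1 (0.0757). Male and female mice also carry different leading numbers in their library names, so sex and whatever that number stands for cannot be told apart.

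Sums of markers of other cells are given here by sex. The 4 CD4 T cell markers summed to 5.90 to 9.80 CPM in rested males and 3.42 to 5.64 CPM in rested females, with no gene of the list at 0 and most of the sum from Zbtb7b, and 0 of the 4 were called for sex. The 7 B cell markers summed to 274 to 314 CPM in rested males and 339 to 359 CPM in rested females, mostly from Ighm, and 1 of the 4 tested was called for sex. The 5 NK cell markers summed to 2.59 to 5.72 CPM in rested males and 1.77 to 4.30 CPM in rested females, which overlapped. Of the 4 tested, 1 was called for sex, as higher in females. In rested libraries Klre1 held 0.729 to 3.89 CPM, Gzma 0.195 to 2.10 CPM, Klrb1c 0.469 to 1.04 CPM and Klra8 0.0521 to 0.605 CPM, and Ncr1 was at 0. Their part in the Mapk12 values was not tested. The sex term of Mapk11 was -0.29 in females (SE 0.08), with an adjusted p of 0.0568. Its rested values overlapped between the sexes, at 20.1 to 25.2 CPM in males and 13.5 to 20.3 CPM in females.

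Mapk11 and Mapk12 are neighbours. In the deposited coordinates Mapk11 starts 1782 bases beyond the end of Mapk12, and in the GENCODE M21 annotation both lie on the minus strand, so Mapk12 is downstream of Mapk11. Mapk14 and Mapk13 are also adjacent, 20890 bases apart on chromosome 17, both on the plus strand. In each pair the gene lying upstream on its strand was the more abundant per length in rested cells. Mapk11 stood at 7.02 against 1.26 FPKM for Mapk12, and Mapk14 at 28.3 against at most 0.0110 FPKM for Mapk13. Across the 10 libraries the log2 CPM of Mapk11 and Mapk12 had a Pearson r of 0.215, given as a description. The libraries share their mice and fall into rested and activated cells.

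The other tested members fell into a rising and a falling set across the 10 libraries. Mapk3, Mapk7 and Mapk9 had Pearson r of 0.930 to 0.958 with each other, and Mapk3 had -0.977 with Mapk6, -0.925 with Mapk11 and -0.864 with Mapk8. These values mostly restate the step between rested and activated cells. Mapk14 had r between -0.196 and 0.261 with each of the other members.

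For each member the most similar patterns among 5591 genes of at least 5 CPM on average and a range of at least 1.5-fold were listed, by Pearson r of log2 CPM over the 10 libraries and with no test. For Mapk3 they were Fmnl1 (0.998), a formin gene, and Irf2bpl (0.998). For Mapk6 they were Pop7 (0.998), a ribonuclease P subunit gene, and Nudc (0.998). For Mapk7 they were Kif22 (0.986), a kinesin gene, and Carns1 (0.981), for Mapk8 Adk (0.977), the adenosine kinase gene, and Suz12 (0.969), a Polycomb subunit gene, and for Mapk9 C2cd2 (0.988) and Mtss1 (0.986). Mapk11 was closest to Map3k8 (0.977), which encodes the kinase TPL2, and Tnfsf4 (0.9745), the OX40 ligand gene. Mapk12 was closest to Lrrk1 (0.946) and Gng2 (0.946). For Mapk14 they were Samhd1 (0.860) and Cfap74 (0.843). Mapk9 and Mapk14 themselves varied by less than the 1.5-fold asked of the compared genes, so genes as flat as these could not be listed.

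The promoter windows of the members, the 250 bases before a gene's start in RefSeq (build GRCm38.p6), were searched on both strands for 5 motifs, and 8 of the 9 genes were found in the table, with 12 windows. The window of Mapk11 and 1 of the 2 windows of Mapk6, the strongest risers, are shown, with capitals at each match to the GC-box GGGCGG or the ETS core CCGGAA. In these windows the matches do not overlap one another.

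Mapk6, chr9:75410017-75410266, minus strand: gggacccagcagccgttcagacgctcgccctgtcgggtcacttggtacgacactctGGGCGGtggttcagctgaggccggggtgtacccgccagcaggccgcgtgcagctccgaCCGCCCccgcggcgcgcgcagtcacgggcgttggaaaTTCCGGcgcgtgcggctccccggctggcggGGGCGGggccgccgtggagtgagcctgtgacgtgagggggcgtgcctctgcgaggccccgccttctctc
Mapk11, chr15:89149607-89149856, minus strand: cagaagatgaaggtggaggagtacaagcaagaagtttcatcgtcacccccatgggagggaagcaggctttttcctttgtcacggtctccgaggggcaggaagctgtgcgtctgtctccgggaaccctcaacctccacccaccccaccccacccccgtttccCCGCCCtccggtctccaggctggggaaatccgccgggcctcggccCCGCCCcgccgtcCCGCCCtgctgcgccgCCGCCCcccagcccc

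Counted by window, a GC-box occurred in 10 of the 12 member windows, against 32.7% of the table's 32841 windows of the same length. The 2 windows of Mapk7 overlap almost wholly and hold the same 2 GC-boxes, so the member windows are not all separate. The ETS core occurred in 2 of 12, 1 of the windows each of Mapk6 and Mapk14, against 12% of all windows. The second window of Mapk6, not printed, held 2 GC-boxes and no ETS core. The E-box CACGTG occurred in 1 of 12, that of Mapk12, against 6.02% of all windows. The AP-1 motif TGANTCA (6.75% of all windows) and the CRE motif TGACGTCA (1.55%) occurred in no member window, which says only that these letters are not in these windows. GC-boxes were thus held by rising members and by the falling members Mapk7 and Mapk9, while Mapk3 could not be searched.

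The rest of the pathway also changed with activation, in both directions. Of 7 MAP kinase kinase genes, 2 rose and 2 fell in control cells, and 3 rose and 2 fell in cKO cells (median log2 fold change -0.10 and -0.08). The median over all genes was -0.00 in control and -0.01 in cKO cells. The kinases that act on p38 moved apart. Map2k3 (MKK3) rose from 61.8 ± 3.6 to 228 ± 19.1 CPM over the 5 mice (log2 fold change 1.80 in control and 1.82 in cKO cells). Map2k6 (MKK6) fell from 1.17 ± 0.24 to 0.424 ± 0.076 CPM (-1.72 and -1.39). In the ERK branch Map2k1 (MEK1) had -0.19 in control (SE 0.06, adjusted p = 0.0223) and -0.08 in cKO cells (adjusted p = 0.182), and Map2k2 (MEK2) rose by 0.20 and 0.25.

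Of 20 tested MAP kinase kinase kinase genes, 3 rose and 12 fell in control cells, and 4 rose and 13 fell in cKO cells (median -0.30 and -0.37). Map3k8, whose product TPL2 acts on MEK1 and MEK2, rose from 14.1 ± 4.3 to 34.5 ± 7.1 CPM (log2 fold change 1.41 and 1.16). Map3k1 fell from 199.6 ± 6.1 to 123 ± 13.5 CPM (-0.72 and -0.81) and Map3k15 from 19.5 ± 1.0 to 7.47 ± 1.02 CPM. Map3k20, which encodes the stress kinase ZAK, was below the floor in rested cells and stood at 1.17 ± 0.23 CPM in activated cells.

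Of 15 genes of Ras proteins and their regulators, 3 rose and 5 fell in control cells, and 3 rose and 6 fell in cKO cells. The GTPase-activating protein genes Rasal3 (log2 fold change -1.27 and -1.39) and Rasa3 (-1.27 and -1.32), which switch Ras-type GTPases off, fell, whereas Rasal1 (1.68 and 1.65) and Nf1 (0.90 and 0.81), of the same function, rose. Among 19 scaffolds and adaptors 5 rose and 7 fell in control cells, and 5 rose and 9 fell in cKO cells. Gadd45b, an activator of the p38 and JNK kinase MEKK4, rose from 5.65 ± 0.52 to 142 ± 7.9 CPM (4.58 and 4.59). Zap70, the receptor-proximal kinase that can lead to p38 phosphorylation in T cells, rose (1.16 and 1.16). Pea15a, which holds ERK in the cytoplasm, fell (-1.12 and -1.15), and so did the scaffold gene Ksr2 (-1.36 and -1.79).

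Downstream, 4 of 11 MAPK-activated kinase genes rose and 6 fell in control cells, and 3 rose and 6 fell in cKO cells (median -0.16 and -0.18). The p38 substrates Mapkapk2 (log2 fold change 0.61 and 0.69) and Mapkapk3 (0.71 and 0.73) rose, and the nuclear kinase genes Rps6ka5 (-0.89 and -1.15) and Rps6ka4 (-0.37 and -0.43), which encode MSK1 and MSK2, fell. Of 17 substrate transcription factors 8 rose and 2 fell in control cells, and 10 rose and 5 fell in cKO cells. Fosl2 rose from 32.8 ± 3.5 to 174.1 ± 11.8 CPM (2.38 and 2.32), Ets2 rose (1.42 and 1.38), and Ets1 fell from 1379 ± 43.1 to 697 ± 43.3 CPM (-1.06 and -1.05). Fosl1 stood at 0.211 ± 0.120 CPM at rest and 30.7 ± 4.5 CPM after activation.

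The phosphatases that act on MAP kinases were the list with the largest share of genes rising: 9 of 12 rose and 2 fell in each genotype, with a median log2 fold change of 1.93 in control and 1.57 in cKO cells. Dusp6, which acts on ERK, rose from 6.43 ± 0.57 to 29.7 ± 2.6 CPM (2.10 and 2.17). Dusp16, a JNK phosphatase gene, rose (1.44 and 1.42), as did Ptpn7 (1.77 and 1.72), a tyrosine phosphatase gene of blood cells. Dusp2 itself rose by 1.67 in control and 1.00 in cKO cells. In the genotype comparisons Dusp2 was the only gene called among the 101 tested genes of the 7 lists, at rest (-1.82, adjusted p = 8.1e-08) and after activation (-2.49, adjusted p = 1.18e-09).

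**Figure D5:**
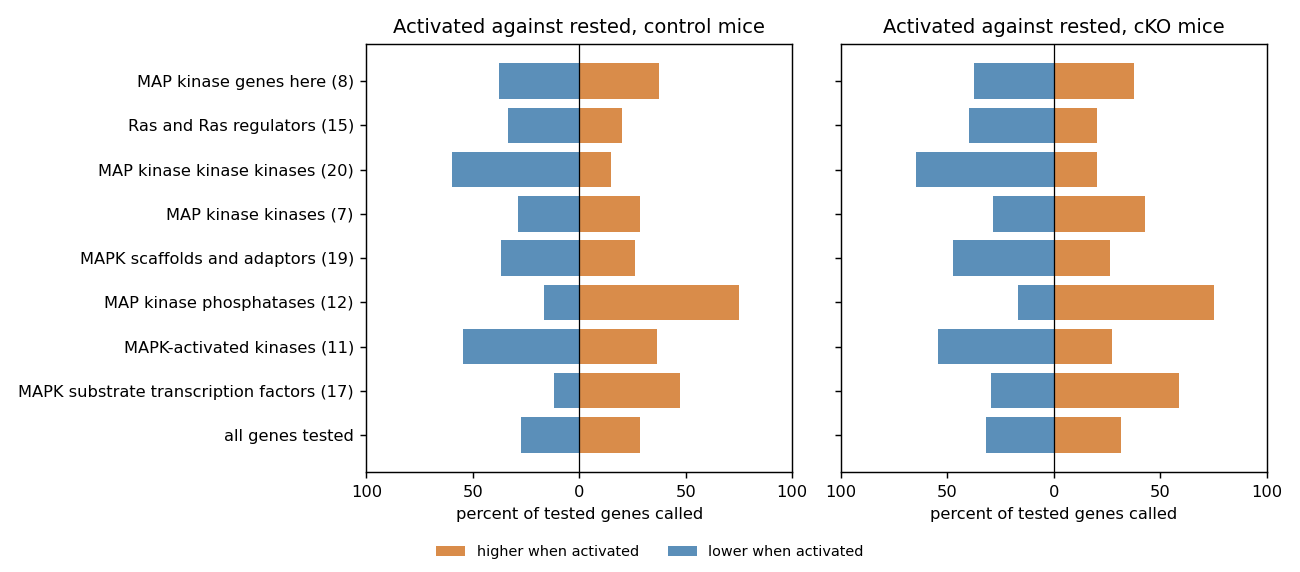
Percent of tested genes called higher (right of 0) or lower (left of 0) on activation in control and cKO mice, for the MAP kinase genes, 7 lists of pathway genes (number tested in brackets) and all genes tested. MAP kinase phosphatases show the largest share of rising genes, 9 of 12 in both genotypes, and MAP kinase kinase kinases the largest share of falling genes, 12 and 13 of 20.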

How the data were processed

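Bulk RNA-seq libraries from a stranded mRNA kit (per the labels' protocols) were made from rested and activated CD8+ T cells of 5 mice. The authors deposited 1 table of raw counts and FPKM per gene and library. Per the submitters' processing notes Subread, FastQC and MultiQC were used with build mm39, and for aligner settings, annotation release and strand use the sources used here give nothing. The deposited FPKM equal counts per column total and per deposited exonic length plus 1 base, within a relative deviation of 9.4e-07.

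Counts were analysed with edgeR 4.0.16 and limma 3.58.1 in R 4.3.3: TMM scaling, edgeR's low-count filter (18966 of 57010 genes tested, 24326 had no count), group means plus sex over all 10 libraries, quasi-likelihood tests and Benjamini-Hochberg adjustment over all genes at 0.05. CPM values are not TMM-scaled. Shares used exact permutation tests in Python 3.11.15. DESeq2 1.42.0, other filters and scalings, FPKM with a pseudocount of 0.5, a mouse block and leaving out each mouse were alternatives. Libraries of the same number and genotype come from the same mouse, and their deviations from the group means, with sex not removed, correlated at 0.146 to 0.356. The 2 control mice share the value 0.356 by construction, since their deviations mirror each other. For the genotype comparisons the mouse block was fitted with limma, and its estimated correlation, with sex in the model, was -0.135.

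Beyond the members, up to 4 genes per list were named by the smallest p on activation in control cells, plus any called between genotypes, and for likeness the 2 genes with the highest Pearson r. Members, lists and rules were chosen with earlier results of these data known. The rule also covered the other genes named Mapk, which are not all reported here.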

Additional observations from a re-analysis of the deposited data

How the results depend on the processing

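Of 640 member values recomputed, 590 kept their direction and their side of the threshold, 6 lost and 7 gained a call, and 37 changed sign, none of them called in either fit. Of the 168 recomputed activation calls 166 held, and those of Mapk8 and Mapk9 in control cells ended without control mouse 2. The block on mouse (replicate block) left 6 members called on activation in each genotype and 0 in the genotype and interaction comparisons, and changed no member's call in these. Over all genes it called 10352 and 11840 on activation, 10 and 7 between genotypes and 0 in the interaction. The sex comparison was not refitted with the block.

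Sign changes were as follows. For Mapk14 on activation in cKO cells the log2 fold change was 0.0108 with DESeq2 size factors, 0.0108 with DESeq2's Wald test, 0.0553 with library totals alone (an alternative chosen after seeing the data), 0.0066 without and 0.0120 with a stricter low-count filter, 0.0530 on FPKM and 0.0064 with only the groups compared. For Mapk6 between genotypes at rest it was -0.0031 with DESeq2 size factors and with the Wald test, -0.0169 without the sex term and -0.0056 with only the groups compared. For Mapk9 the interaction was 0.00081 with DESeq2 size factors, 0.00078 with the Wald test and 0.00029 without a filter. Mapk12 on activation in control cells was -0.0841 without the sex term. The causes were not tested.

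Leaving out 1 mouse at a time gave ranges that crossed 0. On activation they were -0.294 to 0.508 for Mapk12 in control cells and -0.043 to 0.029 for Mapk14 in cKO cells. For genotype at rest they were -0.135 to 0.044 for Mapk3, -0.055 to 0.051 for Mapk6 and -0.104 to 0.0086 for Mapk14. For genotype after activation they were -0.039 to 0.104 for Mapk3, -0.051 to 0.112 for Mapk7, -0.078 to 0.239 for Mapk11 and -0.250 to 0.439 for Mapk12. For the interaction they were -0.018 to 0.154 for Mapk3, -0.054 to 0.053 for Mapk8 and -0.038 to 0.045 for Mapk9.

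The number of members called between genotypes at rest was 2 without a filter. For sex it was 2 without a filter, 2 with the Wald test, 0 on FPKM, and 0 to 2 when a mouse was left out. Without a filter Mapk12 also passed as lower on activation in cKO cells (-0.46, adjusted p = 0.0128). The rise of the Mapk8 share was 9.81 points by CPM. Over all genes the genotype calls at rest numbered 8, against 204 without a filter, 5 with a stricter one, 29 with the Wald test, 5 on FPKM, 25 without cKO mouse 2 and 15 without control mouse 1. After activation they numbered 8, against 211, 5, 21 and 4 in the same order, 5 with only the groups compared and 49 without cKO mouse 2. The interaction had 39 without a filter, 3 with the Wald test and 3 without cKO mouse 3. Sex had 771, against 1911 without a filter, 1271 with the Wald test, 253 on FPKM and 169 to 727 with a mouse left out. Activation in control cells had 6981 calls without control mouse 2, against 10631. With 2 control mice, genotype differences within the intervals given could not be detected.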
